A study of Mus musculus with 6 samples.

Results

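The genes described here encode the enzymes that make cholesterol and fatty acids, together with the proteins that switch these enzymes on and off. The list holds 17 genes of sterol synthesis and handling, 10 genes of fatty acid synthesis and 5 regulators, 32 genes in all. A gene was represented by its brightest probe set, the one with the highest mean signal over 6 arrays, and 31 of the 32 were measured in this way. All 31 passed the filter on low signals, among 12726 genes that did. Acat2 is not analysed here.

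Signals came from primary chondrocytes, the cells that make cartilage, of newborn wild-type mice (3 arrays) and newborn Slc39a13-KO mice (3 arrays). Slc39a13 encodes a zinc transporter of the SLC39/ZIP family. In the homozygous KO mice, bred from targeted embryonic stem cells, a Neo cassette takes the place of a coding part of the gene. The cells of both groups were released from the cartilaginous rib cage with collagenase, strained and cultured in medium with fetal calf serum, and neither a sort nor the strain of the cultured mice is described. Serum brings lipoprotein cholesterol to cultured cells, and both groups grew with it. Nothing in the labels says whether the 3 arrays of a group came from separate animals or cultures, so the p-values measure the spread between arrays, which may be technical.

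Cells make cholesterol from acetyl-CoA by the mevalonate pathway, and long-chain fatty acids by the carboxylation of acetyl-CoA and stepwise chain growth. Both programs are driven by SREBP transcription factors, which are made as precursors in the membrane of the endoplasmic reticulum. When sterols are scarce, SCAP escorts the precursor to the Golgi, where it is cut and its active part leaves for the nucleus. When sterols are plentiful, the INSIG proteins hold SCAP back. SREBP2, encoded by Srebf2, acts mainly on sterol genes, and SREBP1c, a product of Srebf1, acts mainly on fatty acid genes. Cartilage has few blood vessels, and chondrocytes need newly made sterol for growth and for the lipid attached to Hedgehog proteins.

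SREBPs bind sterol regulatory elements and act together with NF-Y, which binds CCAAT, and Sp1, which binds GC boxes. Promoters of 5 genes whose signals fell are shown for these letters, each as the 250 bases before the RefSeq start (build GRCm38.p6), 5′ to 3′ on the strand of the gene. Capitals mark the letters TCACNCCAC of a sterol regulatory element or CCAAT, on either strand, so that ATTGG is CCAAT read on the opposite strand. Idi1 lies at chr13:8885356-8885605 (plus strand), Hmgcs1 at chr13:119690101-119690350 (plus), Msmo1 at chr8:64733579-64733828 (minus), Insig1 at chr5:28071162-28071411 (plus) and Fasn at chr11:120824548-120824797 (minus). Idi1 and Insig1 fell the furthest, Hmgcs1 holds the sterol regulatory element, Msmo1 has several CCAAT matches, and Fasn is the fatty acid gene that fell.
Idi1: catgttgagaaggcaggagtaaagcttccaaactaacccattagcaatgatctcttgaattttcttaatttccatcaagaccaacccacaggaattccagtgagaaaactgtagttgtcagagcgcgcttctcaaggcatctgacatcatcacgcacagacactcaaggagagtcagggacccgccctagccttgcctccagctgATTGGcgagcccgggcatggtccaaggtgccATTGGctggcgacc
Hmgcs1: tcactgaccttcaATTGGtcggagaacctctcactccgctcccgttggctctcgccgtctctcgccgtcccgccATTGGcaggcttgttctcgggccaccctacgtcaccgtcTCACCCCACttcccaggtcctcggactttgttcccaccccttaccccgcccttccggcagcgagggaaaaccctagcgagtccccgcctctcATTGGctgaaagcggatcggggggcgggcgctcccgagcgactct
Msmo1: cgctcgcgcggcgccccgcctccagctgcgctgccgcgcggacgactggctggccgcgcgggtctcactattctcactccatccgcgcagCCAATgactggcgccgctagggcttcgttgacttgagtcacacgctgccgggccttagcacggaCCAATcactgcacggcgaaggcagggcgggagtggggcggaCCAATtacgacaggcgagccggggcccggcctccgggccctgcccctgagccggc
Insig1: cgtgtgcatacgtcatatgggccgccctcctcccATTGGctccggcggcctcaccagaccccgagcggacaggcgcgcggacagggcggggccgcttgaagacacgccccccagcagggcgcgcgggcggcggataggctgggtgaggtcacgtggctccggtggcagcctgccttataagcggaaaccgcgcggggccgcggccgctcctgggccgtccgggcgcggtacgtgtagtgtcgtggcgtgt
Fasn: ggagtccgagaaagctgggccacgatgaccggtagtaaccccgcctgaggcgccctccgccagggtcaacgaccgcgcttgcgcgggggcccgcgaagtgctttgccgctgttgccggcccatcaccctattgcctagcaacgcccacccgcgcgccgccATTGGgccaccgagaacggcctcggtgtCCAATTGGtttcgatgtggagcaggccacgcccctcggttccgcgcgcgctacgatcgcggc

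In Idi1 the CCAAT matches begin 45 and 14 bases before the start. In Msmo1 they begin 160, 96 and 55 bases before it. The sterol regulatory element of Hmgcs1 begins 137 bases before the start, between CCAAT matches that begin at 176 and 45. The pair of matches at 62 and 59 in Fasn overlaps, and its other match begins at 90. Insig1 has 1 match, at 216.

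Over windows that reach from 250 bases before to 50 bases after the start, 25 of the 32 genes had a window in the promoter table. CCAAT was present in 12 of 13 sterol genes (92.3%), 4 of 7 fatty acid genes (57.1%) and 4 of 5 regulators (80.0%). Of the 10278 genes tested on the arrays that have a window, 42.6% held CCAAT. The GC box GGGCGG was present in 12 of 13 sterol genes (92.3%), 3 of 7 fatty acid genes (42.9%) and all 5 regulators, against 67.5% of the tested genes. The letters TCACNCCAC were found in 1 member, Hmgcs1, and in 1.42% of the tested genes. The 13 sterol genes include Acat2, which was not tested on the arrays and held no CCAAT. Over all 27025 genes of the table the shares were 41.1% for CCAAT, 38.2% for the GC box and 1.44% for TCACNCCAC. These 3 motifs do not share letters with each other where they lie in the printed promoters. A match is only a match of letters, and its absence says only that these letters are not in the window. Sterol genes with CCAAT were found both among those that fell, such as Idi1, Cyp51 and Sc5d, and among those that did not pass the test, such as Mvk and Dhcr7.

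Before the members are described, some facts apply to all results. The targeted gene, Slc39a13, had signals of 901, 1081 and 991 on wild-type arrays and 100.5, 196 and 165 on KO arrays, so that it changed by -2.67 on the log2 scale (SE 0.22, limma adjusted p = 0.000189). Whether its probe set lies in the removed part of the gene is not known here. All 11 chondrocyte markers were above the filter, the brightest being Col2a1, Col9a1, Comp and Acan. Of these 11, 4 were higher and 1 lower in KO cells, and their summed signal was 80054 to 94526 in wild-type and 110857 to 154381 in KO arrays. The KO array of replicate 1 was unlike the rest, with correlations of 0.947 to 0.957 to the other 5 and a median signal of 108 against 80.7 to 88.4. Fold changes are differences of mean log2(signal + 7.96), KO minus wild type, which understates the change of dim genes. A gene was called when its limma p, adjusted by the Benjamini-Hochberg method over all 12726 genes, was under 0.05. By this rule 592 genes were lower (4.65%) and 590 were higher (4.64%), and with each array centred on its median instead 228 were lower and 106 higher. In RNA from a whole culture, fewer cells of a type and less RNA per cell cannot be told apart.

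Of 16 sterol genes measured, 8 fell, 0 rose and 8 did not pass the test, where 4.65% of all genes fell. Those that fell were Hmgcs1, Idi1, Fdps, Fdft1, Sqle, Cyp51, Msmo1 and Sc5d, from the entry to the mevalonate pathway to the late steps of the sterol ring. The median log2 fold change of the 16 was -0.43, a signal 1.35-fold lower, against 0.01 over all genes, and 15 of the 16 were below 0. All 3 KO arrays were below all 3 wild-type arrays for 11 of the 16, which was so for 14.9% of all genes. Without KO replicate 1 the count of sterol genes that fell was also 8. Leaving out wild-type replicate 1 gave 5 and leaving out wild-type replicate 2 gave 5, and median centring gave 4. Limma without its trend gave 2 and the methods' t-test 2, where over all genes they gave 142 and 44 lower. Of 5 further tested genes that were listed with sterol synthesis beside the members, 0 fell and 1 rose (Acat1), and their median was -0.06.

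Idi1, the isomerase that turns isopentenyl diphosphate into its reactive isomer, had signals of 2119, 2182 and 1976 on wild-type arrays and 900.4, 846 and 1014 on KO arrays. The groups were far apart, with the highest KO array below every wild-type array. The mean signal dropped from 2093 ± 105 to 920.1 ± 86.1 (SD, n = 3 arrays each), or 44.1% of the wild-type level, a log2 fold change of -1.18 (SE 0.09, adjusted p = 0.000189). By adjusted p it had rank 11 among the 12726 genes. It was called in all 17 alternative fits, including each array left out, median centring and the methods' t-test. A separate probe set of Idi1 gave a log2 fold change of -1.36, adjusted p = 0.000937 over 23309 probe sets.

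Hmgcs1, which makes HMG-CoA at the entry of the mevalonate pathway, had signals of 6313, 6229 and 5769 in wild-type and 4400, 4180 and 4422 in KO arrays. The KO arrays lay close together and all were under the wild-type arrays. The log2 fold change was -0.49 (SE 0.07, adjusted p = 0.00412). Its brightest probe set is of a kind (_x_at) that may also bind other transcripts. Of its 4 other probe sets, 1 fell by 0.78 and another by 0.53 on the log2 scale, with adjusted p of 0.00479 and 0.00629 over probe sets, and the remaining pair did not pass the test. The next enzymes, which phosphorylate and decarboxylate mevalonate, did not pass the test: Mvk had a log2 fold change of -0.05 (95% interval -0.32 to 0.23), Pmvk -0.25 (-0.66 to 0.17) and Mvd -0.25 (-0.74 to 0.23). With these probe sets, the brightest of each gene, the groups overlapped. That of Mvd (_s_at) may also bind other transcripts. The other Mvd probe set, of similar signal, had 260, 293 and 236 in wild-type and 136, 174 and 206 in KO arrays. Its groups did not overlap. Its log2 fold change of -0.60 (95% interval -1.05 to -0.15) did not pass the test (adjusted p = 0.111 over probe sets). The other Mvk probe set, at -0.21, had overlapping groups. In Pmvk, KO replicates 1 and 2 had signals of 385 and 382. KO replicate 3, at 618, was above the wild-type range of 502 to 595.

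Fdps, the synthase of farnesyl diphosphate, had signals of 3760, 3751 and 3588 in wild-type and 2394, 3083 and 2644 in KO arrays. It fell with a log2 fold change of -0.46 (SE 0.10, adjusted p = 0.0171). KO arrays were spread more widely (SD 348) than wild-type arrays (SD 96.7), and the call was lost when any of the 3 wild-type arrays was left out, with an adjusted p of up to 0.0826. It was also lost with median centring (limma adjusted p = 0.123). Fdft1, the squalene synthase that commits farnesyl groups to sterols, had signals of 2162, 2190 and 2080 in wild-type and 1328, 1473 and 1449 in KO arrays. Both groups were tight and clearly separate. The log2 fold change was -0.60 (SE 0.08, adjusted p = 0.00248). This probe set too may bind other transcripts, and the gene's other tested probe set had -0.37, adjusted p = 0.0987 over probe sets.

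Sqle, the squalene epoxidase, had signals of 1584, 1848 and 1443 in wild-type and 1231, 1179 and 1259 in KO arrays. Its log2 fold change was -0.40 (SE 0.10, adjusted p = 0.0366), and the call was lost without wild-type replicate 1, wild-type replicate 2 or KO replicate 2 (adjusted p up to 0.169). Median centring lost it as well (limma adjusted p = 0.149). Lss, which folds squalene epoxide into lanosterol, had all 3 KO arrays (392, 355 and 388) below the wild-type arrays (479.7, 531 and 445). It did not pass the test, with a log2 fold change of -0.35 (SE 0.13, adjusted p = 0.12).

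Enzymes that trim lanosterol towards cholesterol followed. Cyp51, the lanosterol demethylase, had signals of 1778, 1817 and 1614 in wild-type and 1110, 1145 and 1248 in KO arrays, with a log2 fold change of -0.57 (SE 0.09, adjusted p = 0.00494). With median centring the call of Cyp51 was lost (limma adjusted p = 0.0537). Msmo1, the methylsterol oxidase, had 2334, 2171 and 1986 in wild-type and 1408, 1463 and 1495 in KO arrays, and a log2 fold change of -0.57 (SE 0.09, adjusted p = 0.00438). The levels of both in KO cells were close to each other as a share of wild type, 67.4% for Cyp51 and 67.5% for Msmo1. A second probe set of Cyp51 fell by 0.49 on the log2 scale (adjusted p = 0.0475 over probe sets). Sc5d, the sterol desaturase, had 1962, 1937 and 1883 in wild-type and 1202, 1376 and 1526 in KO arrays, a log2 fold change of -0.50 (SE 0.10, adjusted p = 0.0122) that lost its call without wild-type replicate 1 or 2 and with median centring. Its 2 dimmer probe sets, at -0.01 and 0.19 on this scale, did not pass the test, and the average of all 3 gave -0.11 (adjusted p = 0.672).

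Nsdhl and Hsd17b7, which act with Msmo1 on the methyl groups of the ring, did not pass the test although no KO array reached the wild-type range. Nsdhl had a log2 fold change of -0.41 (SE 0.15, adjusted p = 0.121) and Hsd17b7 -0.47 (SE 0.15, adjusted p = 0.0869). Wild-type arrays of Nsdhl ran from 758 to 1098, with KO arrays from 581 to 743. Those of Hsd17b7 ran from 436 to 546, with KO arrays from 303 to 413. This Hsd17b7 probe set (_x_at) may also bind other transcripts. The gene's other tested probe sets had -0.28, -0.90 and -0.23 on the log2 scale and did not pass the test. In the dimmest of them, at -0.23, the groups overlapped. Dhcr7, the reductase of the last step, had overlapping groups and a log2 fold change of -0.09 (95% interval -0.38 to 0.19). Stard4, a soluble carrier of cholesterol rather than an enzyme, had 0.06 (-0.18 to 0.30), the 1 positive value of the 16, and its sign turned with median centring.

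**Figure D1:**
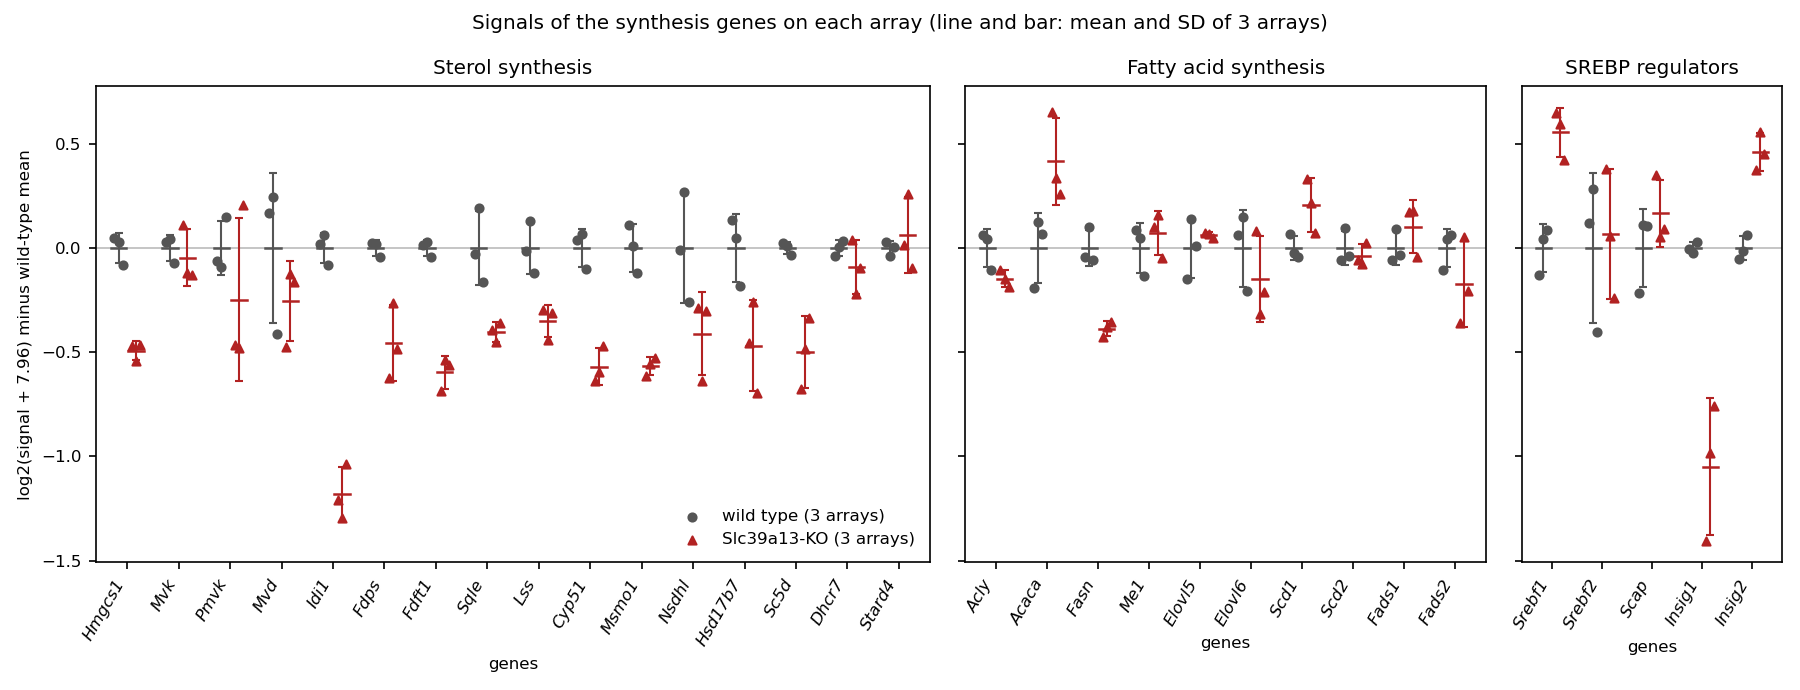
Log2(signal + 7.96) of each gene on each array, minus the gene's wild-type mean (y axis), for 16 sterol genes, 10 fatty acid genes and 5 regulators (x axis). Grey circles are the 3 wild-type arrays, red triangles the 3 KO arrays, and lines with bars the mean and SD; Idi1 and Insig1 lie furthest below 0 in KO cells, while Srebf1 and Insig2 lie above it.

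Fatty acid synthesis genes, read on the same arrays, did not move together. Of 10 measured, 1 fell (Fasn), 0 rose and 9 did not pass the test, against 4.65% lower and 4.64% higher over all genes. Their median log2 fold change was 0.01, as it was over all genes, with 5 of 10 below 0, and both medians were -0.08 with median centring. All KO arrays were below all wild-type arrays for 2 of them, Acly and Fasn, and above for 2, Acaca and Scd1, while 14.9% of all genes lay below in this way and 16.0% above. The medians of the sterol and fatty acid genes lay 0.45 apart on the log2 scale, and this difference was not tested.

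Fasn, the fatty acid synthase itself, had signals of 1615, 1783 and 1594 in wild-type and 1234, 1276 and 1298 in KO arrays. Its log2 fold change was -0.39 (SE 0.08, adjusted p = 0.0196), which is 76.5% of the wild-type level. The 3 KO arrays lay close together (SD 32.8) and below the wild-type arrays, yet the call was lost when any wild-type array was left out (adjusted p up to 0.117) and with median centring. Acly, which makes acetyl-CoA from citrate for both pathways, had 3335, 3287 and 2968 in wild-type and 2968, 2880 and 2799 in KO arrays. The groups touched without overlapping, and the log2 fold change of -0.15 did not pass the test (95% interval -0.32 to 0.03). Acaca, the carboxylase that makes malonyl-CoA, had 561, 701 and 674 in wild-type and 1015, 812 and 769.9 in KO arrays. This was a log2 fold change of 0.42 (95% interval 0.12 to 0.72) with an adjusted p of 0.0852, the opposite sign to Fasn.

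The desaturases and elongases, which shape the finished chains, gave no call with the brightest probe set of each gene. Scd1, the stearoyl-CoA desaturase of liver and fat, had 2224, 2084 and 2058 in wild-type and 2667, 2465 and 2233 in KO arrays, a log2 fold change of 0.21 (SE 0.09, adjusted p = 0.172). Scd2, the desaturase of many other tissues, had 10920.2, 12135 and 11041 in wild-type and 10925, 10754 and 11550 in KO arrays, and its log2 fold change was -0.04 (95% interval -0.21 to 0.14). Its 2 other probe sets gave 0.19 and 0.56, and the latter rose (1053 ± 47.7 to 1560.2 ± 29.5, SD, n = 3 each, adjusted p = 0.00588 over probe sets). Probe sets of Scd2 thus differed in sign and in call. Elovl5 (0.06), Elovl6 (-0.15), Fads1 (0.10), Fads2 (-0.17) and the NADPH-supplying Me1 (0.07) all had overlapping groups, and their 95% intervals together ran from -0.46 to 0.30.

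**Figure D2:**
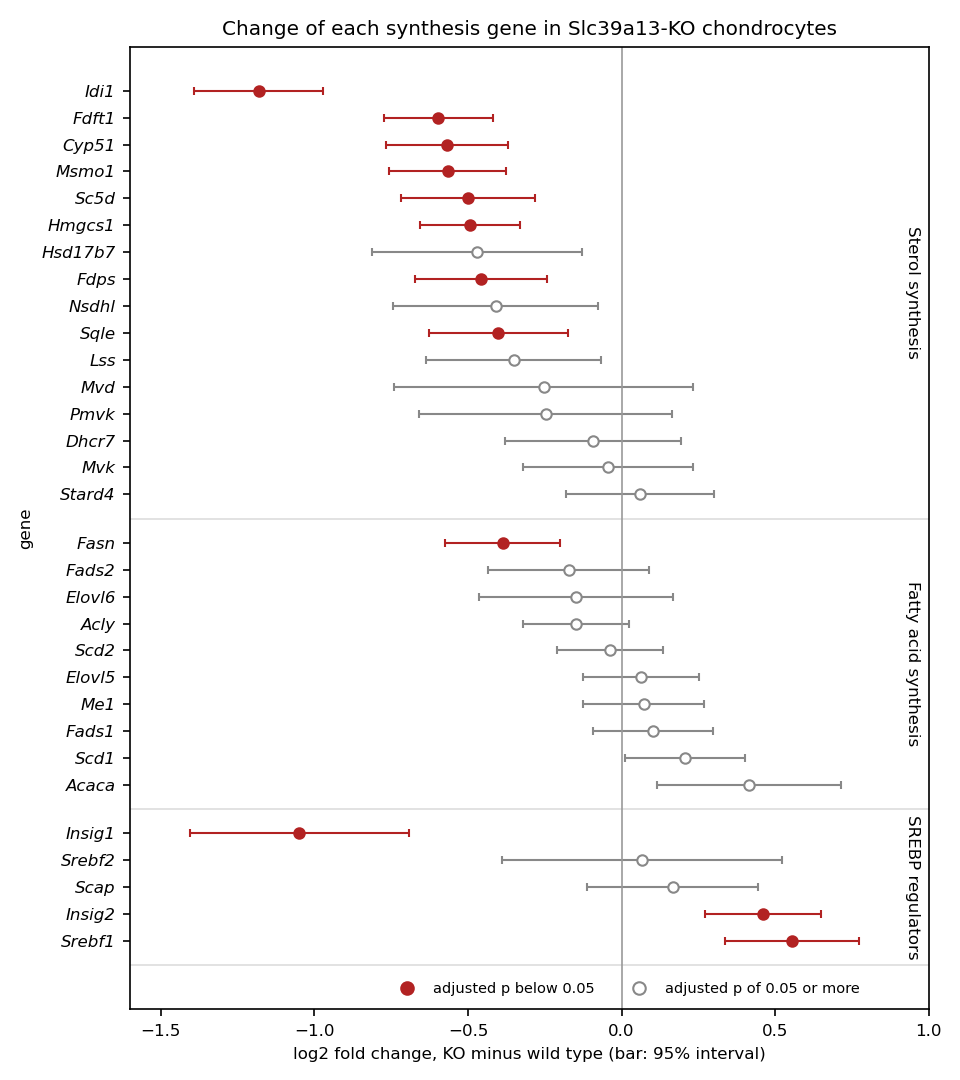
Log2 fold change, KO minus wild type (x axis), with its 95% interval for each of the 31 genes (y axis), ordered within each group. Filled red points are the 12 genes with an adjusted p under 0.05; 8 of the sterol genes lie to the left of 0 in red, and Fasn is the 1 red point of the fatty acid genes.

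Among the 5 regulators, the brightest probe set was lower for 1 (Insig1) and higher for 2 (Srebf1 and Insig2), against 4.65% lower and 4.64% higher over all genes. Srebf1 had only 1 probe set, and the other probe sets of Insig2 had the opposite sign. Insig1, which holds SCAP in the endoplasmic reticulum and is itself a well-known target of SREBPs, had signals of 737, 726 and 754 in wild-type and 274, 370.3 and 433 in KO arrays. No KO array came near the tight wild-type range, though KO arrays differed among themselves (SD 80.0 against 14.1). The log2 fold change was -1.05 (SE 0.16, adjusted p = 0.00449), or 48.3% of the wild-type level. Leaving out any array kept this call (adjusted p up to 0.0262). With Idi1, it was 1 of 2 members whose signal was under 50% of wild type.

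Srebf1, the gene of SREBP1, rose. Its signals were 1023, 1155 and 1190 in wild-type and 1763, 1694 and 1504 in KO arrays, a log2 fold change of 0.55 (SE 0.10, adjusted p = 0.00765). It kept its call with any array left out, but not with median centring. The array does not tell SREBP1a from SREBP1c by this probe set's annotation, which gives the gene only. Srebf2, the gene of SREBP2, had 516, 580 and 357 in wild-type and 620.0, 495 and 400.2 in KO arrays. The groups overlapped widely and the log2 fold change was 0.07 (95% interval -0.39 to 0.52). Scap, the escort of SREBPs, had 0.17 (95% interval -0.11 to 0.44).

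Insig2, the other INSIG gene, gave values that depended on the probe set. The brightest had signals of 1252, 1287 and 1358 in wild-type and 1687, 1912 and 1780.2 in KO arrays, with a log2 fold change of 0.46 (SE 0.09, adjusted p = 0.00916), a call lost without wild-type replicate 1 or 2 and with median centring. A probe set of nearly equal signal had 1368, 1401 and 1385 in wild-type and 1052, 1129 and 1286 in KO arrays, so that it lay lower in every KO array. Its log2 fold change was -0.26, and that of the remaining probe set -0.34, with adjusted p of 0.141 and 0.248 over probe sets. The mean of the 3 probe sets had a log2 fold change of -0.05. No direction is given for Insig2 as a gene.

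Over all probe sets of the members, 65 of 74 passed the filter. Of the 18 tested probe sets of sterol genes that were not the brightest, 4 fell, 0 rose and 15 had a negative log2 fold change, where 3.36% of all tested probe sets fell and 3.44% rose. The 4 were 1 of Idi1, 2 of Hmgcs1 and 1 of Cyp51. Of the 13 such probe sets of fatty acid genes, 0 fell and 1 rose, that of Scd2. A probe set shares its gene's RNA with the brightest, so it repeats the measurement on the same arrays rather than adding samples.

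**Figure D3:**
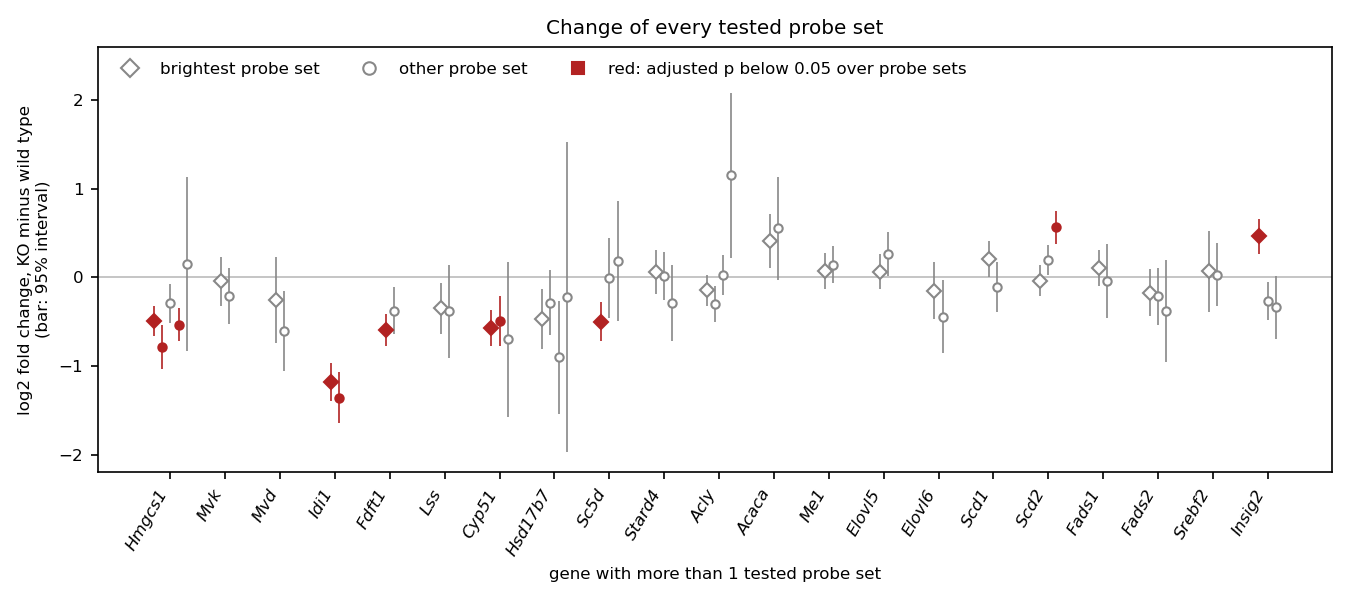
Log2 fold change, KO minus wild type, with its 95% interval (y axis) for every tested probe set of the genes with more than 1 (x axis). Diamonds are the brightest probe sets, circles the others, and red marks an adjusted p under 0.05 over 23309 probe sets; Idi1 has 2 red points below 0, while the 3 points of Insig2 lie on both sides of it.

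Read array by array, the 16 sterol genes had mean levels, relative to the wild-type mean of each gene on the log2 scale, of 0.03, 0.06 and -0.10 in wild-type and -0.45, -0.42 and -0.36 in KO arrays. Every KO array was thus below every wild-type array. KO replicate 1, which was unlike the rest in its correlations over the tested genes and in its median signal, was close to the other KO arrays here. In the 3 KO arrays, 13, 14 and 14 of the 16 genes lay under the lowest wild-type array. The share of all genes that did so on a single array was not computed, so these counts have no background beside them. The 10 fatty acid genes had means of -0.03, 0.08 and -0.05 in wild-type and 0.05, 0.01 and -0.06 in KO arrays, so that the groups overlapped. The median coefficient of variation between replicate arrays was 5.62% in wild-type and 9.63% in KO cells for sterol genes, and 6.30% and 7.91% for fatty acid genes.

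**Figure D4:**
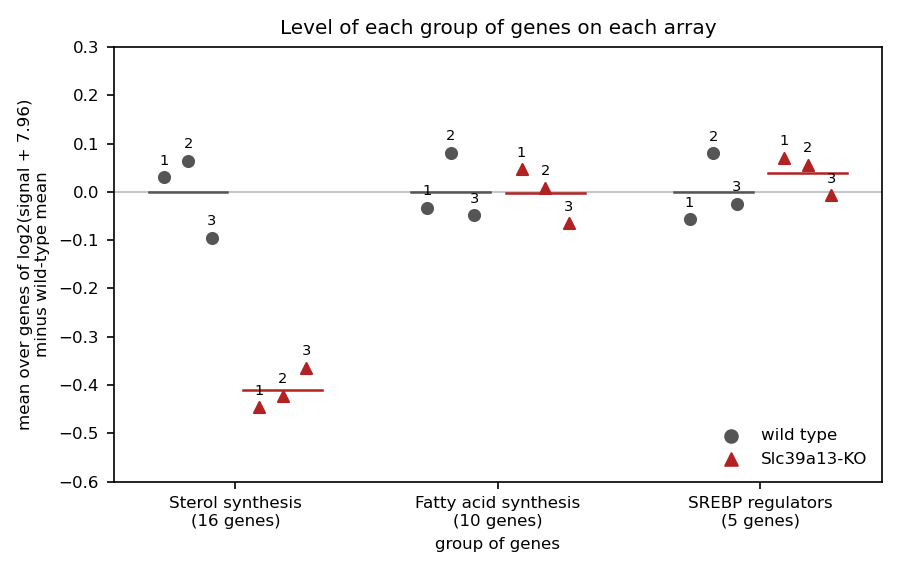
Mean over the genes of a group of log2(signal + 7.96) minus the wild-type mean of each gene (y axis), for sterol genes, fatty acid genes and regulators (x axis). Each point is 1 array with its replicate number, and the line is the mean of 3 arrays; sterol genes of KO arrays lie between -0.45 and -0.36, and the other groups of genes overlap.

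Other genes of the same pathways were also read, and 40 of 51 listed genes were tested. Of these, 1 was lower (2.5%), 5 were higher (12.5%) and 34 did not pass the test, against 4.65% and 4.64% of all genes. The median log2 fold change of the 40 was 0.02. The 5 include Thrsp, which passed the filter only through its KO signals, so the 12.5% is no support for a rise of the list. Erlin2, which helps to anchor the SREBP machinery in the endoplasmic reticulum, fell by 0.31 on the log2 scale (adjusted p = 0.0463). Abca1, the exporter of cholesterol to lipoproteins, had signals of 541, 474 and 527 in wild-type and 632, 722 and 780.4 in KO arrays, and rose by 0.46 (adjusted p = 0.0398). Mylip, a ligase that marks lipoprotein receptors for decay, went from 1109, 1113 and 998 to 1435, 1412 and 1465 and rose by 0.42 on the log2 scale (adjusted p = 0.015). Of 11 tested genes of sterol uptake, export and sensing, Abca1 and Mylip were the 2 that rose, and 0 fell, where 4.64% of all genes rose. The other pathway genes were read from their brightest probe sets alone. Whether their calls held in the alternative fits was not tested.

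Acat1, a mitochondrial thiolase that is no step of cytosolic sterol synthesis, rose by 0.31 (adjusted p = 0.0381). Among 19 further lipid synthesis genes tested, 0 were lower and 2 higher, Tecr and Thrsp, against 4.65% and 4.64% of all genes. Tecr, which completes each round of very long chain elongation, rose by 0.51 (adjusted p = 0.00751). Thrsp, a lipogenic protein of fat and liver, had signals of 48.6, 34.4 and 26.6 in wild-type and 225, 105 and 153 in KO arrays, a difference of 1.89 on the log2 scale. The wild-type mean lay under the filter level of 47.8, so the gene passed the filter only through its KO signals. Its call (adjusted p = 0.0174) is therefore no support for a change of the list, and the size of the difference depends on the pseudocount.

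Markers of other cells moved on the same arrays, and their part in the results was not tested. The counts of each marker list stand against 4.65% lower and 4.64% higher over all genes. Of 8 tested adipocyte markers, 4 were higher (Lpl, Car3, Plin4 and Cebpa) and 0 lower, and the summed signal of all 11 with a probe set was 4595 to 5442 in wild-type and 9825 to 10817 in KO arrays. The brightest of the list by signal were Lpl (means of 2140.4 and 5757 in wild-type and KO cells), Fabp4 (1146 and 1279) and Pparg (794 and 1103), of which the last 2 did not pass the test. No marker was at 0, and 3 were under the filter. They were Adipoq, with 41.3, 18.9 and 6.17 in wild-type and 74.4, 80.5 and 41.9 in KO arrays, Lep, with means of 5.33 and 26.3, and Cidec, with 87.2 in KO replicate 1 and 6.78 and 6.93 in the other KO arrays, against a wild-type mean of 6.60. Of 8 mesothelial markers, 7 were lower, among them Krt18, Krt8, Upk1b and Upk3b, the brightest of the list by signal. The sums of the list were 4291 to 7167 in wild-type and 603 to 1097 in KO arrays. The 7 include Krt19, with 382, 354 and 792 in wild-type and 155, 14.4 and 9.37 in KO arrays. Its KO mean on the log2 scale lay under the filter, so it passed only through its wild-type signals and its call is no support. Of 6 proliferation markers 4 were higher, with sums of 24311 to 25025 and 30194 to 32080. Of 8 fibroblast markers 5 were higher and 2 lower, with sums of 52248 to 63659 and 73409 to 94191. Of 5 tested macrophage markers 1 was lower (sums of 674 to 838 and 624 to 882), of 4 muscle markers 1 was lower and 1 higher (1991 to 2083 and 2172 to 2671). The 1 tested endothelial marker and the 1 tested brown fat marker did not pass the test, with sums of 143 to 278 and 172 to 360.2 for the former list and 67.0 to 175 and 63.3 to 181 for the latter.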

How the data were processed

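Total RNA was labelled as biotinylated cRNA and hybridized to Affymetrix Mouse Genome 430 2.0 arrays, 1 sample per array. The deposited intensities are linear signals that the authors made with MAS5 per their processing notes (version not given in the sources used here), although their methods name gcRMA. Every array has a trimmed mean of 500.003 while quantiles differ between arrays, the form of MAS5 signals. Of 45101 probe sets, 34945 have 1 gene symbol in the array annotation, 932 several, 9211 none and 64 are controls. Of the first, 34741 matched a RefSeq table by Entrez identifier, which changed 0 symbols. Log2(signal + 7.96) was taken, the pseudocount being the 10th percentile over the whole table. A probe set was kept when its mean on this scale reached the 40th percentile (5.80), and the brightest represented each of 12726 genes. The fit used limma 3.58.1 under R 4.3.3 (lmFit and eBayes with trend, no covariates), with Benjamini-Hochberg adjustment over genes and a threshold of 0.05. Probe sets were fitted likewise and adjusted over all 23309 tested. Lists are described by counts and medians, with no test. Promoters are from RefSeq.

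The members, the lists and the alternatives were chosen with earlier results of these data known. All members are named, with every called gene of the other pathway lists and up to 4 markers a list by signal; fat markers under the filter and called adipocyte markers were named after their values were seen. Alternatives were other filters, pseudocounts, normalizations and probe set choices, a replicate block, limma without trend, the methods' t-test and each array left out. The precision is limited by 3 arrays a group.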

Additional observations from a re-analysis of the deposited data

How the results depend on the processing

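Idi1 was called in all 17 alternative fits and Insig1 and Fdft1 in 16. The 19 members without a call had none in any of them. No filter, a filter at the 60th percentile, the other pseudocounts and quantile normalization left every count of called members as it was. With median centring, which moved the median of all genes from 0.01 to -0.08, 4 sterol genes, 0 fatty acid genes and 0 regulators that rose remained called, the medians were -0.53 for sterol and -0.081 for fatty acid genes, and over all genes 228 were lower and 106 higher. Limma without its trend gave 142 lower and 122 higher, with 2 sterol genes lower, 0 fatty acid genes and 0 regulators higher. The methods' t-test after Benjamini-Hochberg adjustment gave 44 and 41, with 2 sterol genes, 0 fatty acid genes and 0 regulators either way. When all probe sets of a gene were averaged, 1 regulator rose, Srebf1. Insig2, whose probe sets differ in sign, had -0.048 and lost its call. Why the counts differed between the other fits was not tested.

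Whether the replicate numbers pair the arrays is not known. Correlations of same-numbered deviations were 0.03, 0.02 and -0.07, and those of differently numbered ones ran from -0.07 to 0.05. With so few arrays these values cannot exclude a shared litter or day. With the replicate block, 350 genes were lower and 345 higher, 7 sterol and 0 fatty acid genes fell, and the regulators were as without it. With 1 array left out, counts ran from 199 to 809 lower and 224 to 778 higher over all genes, from 5 to 8 sterol genes lower, from 0 to 1 fatty acid genes lower, and from 1 to 2 regulators higher. Insig2 lost its call without wild-type replicate 1 or 2.

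Among uncalled members, and for the called Insig2, signs turned under some settings. With median centring Stard4 had -0.035, Me1 -0.023, Elovl5 -0.031 and Srebf2 -0.029. With averaged probe sets Stard4 had -0.072, Acly 0.18, Scd2 0.24 and Insig2 -0.048. With 1 array left out, Stard4 ran from -0.040 to 0.14, Elovl5 from -0.011 to 0.13, Scd2 from -0.067 to 0.012 and Srebf2 from -0.14 to 0.22. Other probe sets, also of the called Insig2, Sc5d and Hmgcs1, had the opposite sign in Scd2 (0.19 and 0.56), Scd1 (-0.11), Insig2 (-0.34 and -0.26), Sc5d (0.19), Acly (0.027 and 1.15), Fads1 (-0.042), Hmgcs1 (0.15) and Stard4 (-0.29).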
